A study of Mus musculus with 14 samples.

Results

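The baseline of 2 control lines of mouse embryonic stem cells (ESCs) was compared at the Degradome-seq sites that were listed for both lines. A site is 1 base on 1 strand at which sequenced fragments began. The method takes it as the first base of an RNA with a 5′ phosphate (5′P), which was not tested site by site. The sites were taken by their position alone: 2595 sites were in both the table of the Drosha experiment and the table of the Dicer experiment, which is 43.3% of the 5990 sites in either, 66.2% of the 3919 sites of the Drosha table and 55.6% of the 4666 sites of the Dicer table. Each table held only the sites that the authors had kept in its own experiment, and a site kept in 1 experiment was not compared here.

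The Drosha-line control was Drosha fl/fl ESCs that carry CreERT2 at the ROSA26 locus and were left untreated, so that both Drosha alleles were floxed but not deleted. The Dicer-line control was Dicer fl/fl ESCs, transduced with a retrovirus that carries GFP, sorted for GFP on day 3 and cultured for 2 more days. There were 2 libraries for each. The Drosha-deficient cells were the first line after 72 h with 100 nM 4-hydroxytamoxifen and 48 h without it, and the Dicer-deficient cells were the second line after GFP-Cre, again with 2 libraries each. All cells were grown in serum and LIF on mouse embryonic fibroblast feeders inactivated with mitomycin C. Parent line, transduction, sorting and separate processing moved together between the controls, so they cannot be told apart. Nothing in the labels says that the libraries of a group came from separate cultures, so p-values measure only the spread between these libraries.

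RNA with a 5′P is left behind by several known processes. Drosha, with its partner Dgcr8, cuts the stem-loops of primary miRNAs and leaves a 5′P on the 3′ fragment, while AGO2 slicing, decapping, the endonuclease SMG6 of nonsense-mediated decay and the debranching of spliced introns leave 5′P ends as well. Mature snoRNAs are trimmed from introns and have a 5′P at their first base. B1 and B2 are short interspersed repeats of the mouse genome that were made by RNA polymerase III and lie in many introns and intergenic stretches. In Degradome-seq, polyadenylated RNA is ligated to an RNA linker at its 5′P, reverse transcribed from random hexamers and sequenced, and genomic letters that resemble the linker end next to a site were used here as a description of where that site lies.

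The sequences at the sites that differed most between the lines are printed first, because the letters separate them into a few kinds. The last 3 bases of the ligated RNA linker were UCU, and a site with TCT in the genome directly before it was called linker-like. Each of the next lines shows the strand of the site, 18 bases before it and 12 bases from it, with the run shared with the linker end in capitals, after the linker itself.
linker: cacgacgcucuuccgaUCU
Egln1 antisense, chr8:124915698-124915727, plus strand: gtcacgcatcttccATCTccatttgggtta
Dst antisense, chr1:34262111-34262140, minus strand: tcttattttcaccaATCTgctccttgatct
Mt2, chr8:94172797-94172826, plus strand: aactcttcaaaCCGATCTctcgtcgatctt
The capitals run over 4 bases at Egln1 and Dst and over 7 bases at Mt2, and all 3 sites were lower in the Dicer line. TCT stood directly before 700 of the 2595 sites (26.98%) and at the same place in 2.16% of 32851 promoter windows of 30 bases from RefSeq of GRCm38.

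A second kind began at letters that many sites shared. Sites with TGGTGGC or GCCTTTAA in the first 30 bases on their own strand were called B1-type, and sites with GAGATGGC or with GGCTCAG, any base (N) and GG were called B2-type. These letters were chosen after the sequences had been seen. The next lines start at the site itself, with the searched letters in capitals.
chromosome 12 site, B2-type, chr12:11225588-11225617, minus strand: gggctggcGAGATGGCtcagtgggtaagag
Nop58 antisense, B2-type, chr1:59715406-59715435, minus strand: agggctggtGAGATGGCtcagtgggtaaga
Exoc3l2 intron, B1-type, chr7:19487203-19487232, plus strand: atcggccgggcaTGGTGGCgcatgccttta
Samd4b intron, B1-type, chr7:28551601-28551630, minus strand: aggcctggtgTGGTGGCgcatgcctttagt
Moved by 1 base, the Nop58 and chromosome 12 lines share most of their letters, but not the base directly before the capitals, and the Nop58 window had 2294 exact copies in the genome and the chromosome 12 window had 330. The B1 letters were in 524 sites (20.2%) against 0.277% of promoter windows, and the B2 letters were in 508 sites (19.6%) against 0.0517%. On the other strand the B1 letters were in 7 sites and the B2 letters in 1. They began at 1 place, within 2 bases of base 11 in 82.6% of the sites with B1 letters and within 2 bases of base 10 in 89.2% of those with B2 letters, and 1 site held both.

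A further kind lay at the first base of an annotated intron, and the next lines show 10 bases of the exon and 20 bases from the site, with the GT of the intron start in capitals.
Zfp42, chr8:43304456-43304485, minus strand: cagccagcagGTaagagtaaacggtttcat
Snhg1, chr19:8724180-8724209, plus strand: tcttttcagaGTaagtagtgttaatggttt
Phf23, chr11:69997829-69997858, plus strand: tagcaaagagGTaaggaacagaaaagtagc
These 3 sites were higher in the Dicer line. Of the 2595 sites, 150 were at such a base and 148 of them read GT. The last pair are messenger RNA sites that were lower in the Dicer line, with the base of the site in capitals.
Tfrc, 3′ UTR, chr16:32631586-32631615, plus strand: aaacttaactCacattatcgggagcagtgt
Ldhb, coding sequence or 3′ UTR by transcript, chr6:142490520-142490549, minus strand: ctcgggggctGaccagcgtcatcaatcaga

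Depth was similar. The steps between the deposited RPM (reads scaled to the mapped total of each library) placed the controls at 28682300 and 29228747 mapped reads for the Drosha line and at 34547609 and 34314160 for the Dicer line. A single read was worth 0.0289 to 0.0349 RPM and the floor of 3 reads was 0.0868 to 0.105 RPM, which cover counting error only. The shared sites took 11.6 to 13.4% of the mapped reads, and the 5 deepest sites took 54.3 to 66.7% of that. All sites of the Drosha table took 12.6 and 12.4% of the mapped reads in the Drosha-line controls. All sites of the Dicer table took 30.1 and 29.2% in the Dicer-line controls. RPM is scaled to all mapped reads, and the part of this gap in the differences was not tested. Across the sites, log2 levels correlated at r = 0.956 between the Drosha-line replicates and at r = 0.881 between the Dicer-line replicates (0.918 over the 1895 sites that were not linker-like), while r between the lines was 0.652 to 0.812 (0.767 to 0.842 over the sites that were not linker-like). These correlations share libraries and sites and carry no test. Dicer-line control replicate 2 stood apart at linker-like and antisense sites, as given with those sites.

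The level of each site was compared as log2(RPM + 0.1), Dicer line minus Drosha line, by limma over all 2595 sites, and a site was called when its Benjamini-Hochberg adjusted p was under 0.05 and its difference past 1.5. Of these, 455 sites (17.5%) were called, 267 higher in the Dicer line (10.3%) and 188 lower (7.24%), and the smallest adjusted p was 3.36e-05. Both Dicer-line libraries were above both Drosha-line libraries at 964 sites (37.1%) and below both at 838 (32.3%). The median difference was 0.07. The split of calls depended on scaling: it was 267 higher and 330 lower with each library centred on its median (a shift of -0.09 in the median difference), 257 and 322 with TMM factors (-0.10) and 114 and 518 with each library centred on the median of the sites that were not linker-like (-0.53). Fitted without the linker-like sites, 310 of 1895 sites (16.4%) were called higher and 88 (4.64%) lower. The number of calls also rested on single libraries, with 84 without Drosha-line replicate 1, 65 without Drosha-line replicate 2, 974 without Dicer-line replicate 1 and 412 without Dicer-line replicate 2. Of the 42 called sites named here, 10 were called in all 4 of those fits, namely Mir147, Mir210, Mt2, Egln1 antisense, Dst antisense, Zfp42, Exoc3l2, Samd4b, the chromosome 12 site and the site at base 78788999 of chromosome 14, and no named call changed sign in any fit.

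**Figure D1:**
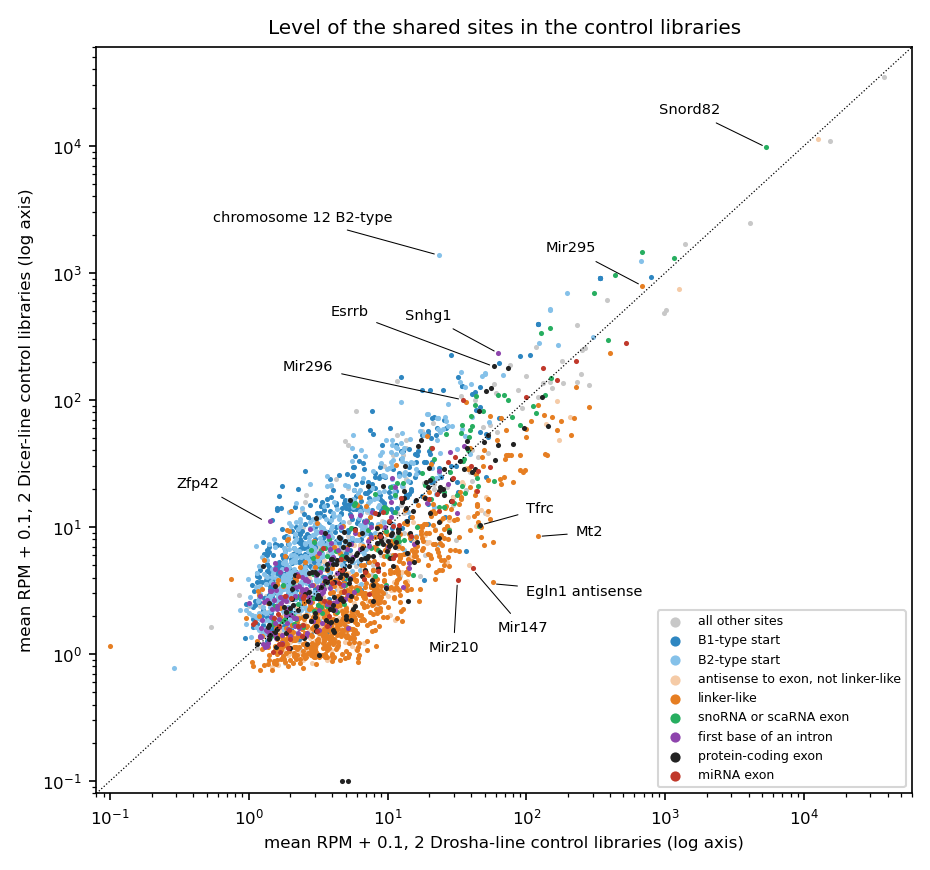
Mean level of each of the 2595 shared sites in the 2 Drosha-line control libraries (x axis, RPM + 0.1, log scale) and the 2 Dicer-line control libraries (y axis, RPM + 0.1, log scale), coloured by kind of site. The dotted line marks equal levels: B1-type and B2-type sites lie mostly above it, linker-like sites mostly below it, and the 5 deepest sites lie near it.

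Most of the sites that were higher in the Dicer line were B1-type or B2-type. Of 502 B1-type sites that were not linker-like, 132 were called higher and 2 lower, with a median difference of 1.12 (quartiles 0.40 and 1.63) and 438 above 0. Of 493 B2-type sites, 97 were called higher and 2 lower, with a median of 0.98 and 440 above 0, against a median of 0.07 over all sites. In percent, 26.3% of B1-type and 19.7% of B2-type sites were called higher, against 10.3% of all sites. Called lower were 0.398% and 0.406%, against 7.24%. The median B1-type site was at 3.56 and 2.75 RPM in the Drosha-line controls and at 6.37 and 7.93 RPM in the Dicer-line controls, and the median B2-type site was at 3.56 and 2.60 RPM against 7.76 and 5.30 RPM. The groups of median levels did not overlap for either repeat. In the deficient libraries the median B1-type difference was 0.12, with 276 sites above 0 and 226 below. The median B1-type site was at 9.87 and 7.30 RPM in Drosha-deficient and at 9.43 and 8.84 RPM in Dicer-deficient cells. For B2-type sites the deficient median was 0.61 (382 above 0, 111 below), against 0.65 over all sites. Both control medians of the differences stayed above 0 when libraries were centred on the sites that were not linker-like, at 0.59 for B1-type and 0.45 for B2-type. With that centring 61 B1-type and 37 B2-type sites were called higher and 11 and 4 lower.

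The counts of B1-type and B2-type calls moved with single libraries. Without Drosha-line replicate 1, 34 B1-type and 24 B2-type sites were called higher, and without Drosha-line replicate 2 they were 15 and 8. Without Dicer-line replicate 1 they were 202 and 70, and without Dicer-line replicate 2 they were 110 and 149. Reads from repeats can be placed at several copies, so the number of exact genomic copies of the first 30 bases was counted. Among sites that were not linker-like, the median difference was 0.08 at 1014 sites with 1 copy, 0.71 at 298 sites with 2 to 10 copies, 0.98 at 223 sites with 11 to 100, 1.00 at 236 sites with over 100 and up to 1000 and 1.26 at 123 sites with more. The 218 B1-type and B2-type sites with 1 copy had a median of 1.08, with 52 called higher and 1 lower. The 796 other sites with 1 copy had a median of -0.10, with 27 called higher and 38 lower. These calls came from the fit over all shared sites and mostly did not hold in a fit over the sites with 1 copy alone. That fit called 3 sites of any kind higher, of which 1 was B1-type and 0 were B2-type.

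The largest difference of all was at the B2-type site on the minus strand of chromosome 12, whose letters are printed above and which lies in no annotated exon or intron. It was at 19.7 and 26.8 RPM in the Drosha-line controls and at 1617 and 1146 RPM in the Dicer-line controls, a difference of 5.88 ± 0.46 (SE, n = 2 per line, limma adjusted p = 3.36e-05). The lines did not overlap, and the Drosha-deficient cells, at 29.2 and 26.8 RPM, and the Dicer-deficient cells, at 1318 and 1261 RPM, kept the level of their own controls. The site at base 78788999 of chromosome 14, minus strand, with 59 copies and neither set of letters, was at 4.85 and 6.91 RPM against 80.5 and 82.6 RPM (3.79 ± 0.47, adjusted p = 0.0022). It was at 23.8 and 16.8 RPM in Drosha-deficient and at 72.6 and 59.4 RPM in Dicer-deficient cells.

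The repeat sites described next lay in genes or on the strand opposite to them, and all were called higher. The naming rule took them for their difference, except that in Tnrc6b, which it took from a gene list. In an intron of Exoc3l2, related to the exocyst, which tethers secretory vesicles, the B1-type site was at 2.16 and 0.924 RPM against 13.2 and 21.8 RPM (3.48 ± 0.54, adjusted p = 0.0047). In an intron of Samd4b, a Smaug-type RNA-binding protein, it was at 2.09 and 1.98 RPM against 16.6 and 11.7 RPM (2.72 ± 0.48, adjusted p = 0.0084). The lines did not overlap at either site. In an intron of Tnrc6b, a GW182 protein that binds Argonaute, the B1-type site was at 3.17 and 3.11 RPM against 16.6 and 9.18 RPM (1.94 ± 0.50, adjusted p = 0.029). A B2-type site in Sars2, the mitochondrial seryl-tRNA synthetase, differed by 2.07 ± 0.49. A B1-type site on the strand opposite to 4930562C15Rik, outside its exons, differed by 3.71 ± 0.78. B2-type sites antisense to exons, in Nop58 (a core protein of box C/D snoRNPs) and Coa4 (cytochrome c oxidase assembly), differed by 1.70 and 1.85. These were the 2 sites antisense to an exon that were called higher.

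The calls at Tnrc6b, Sars2, Nop58 and Coa4 were lost without either Drosha-line replicate, with differences of 1.12 to 2.58 over the fits without 1 library, that at Nop58 also without Dicer-line replicate 2 and that at Coa4 also without Dicer-line replicate 1. The call at 4930562C15Rik was lost without Drosha-line replicate 2. The 4 repeat sites called lower went the other way, and the lowest of them, a B1-type site on the plus strand of chromosome 8 with 11 copies, was at 38.6 and 34.97 RPM against 7.09 and 5.62 RPM (-2.52 ± 0.47, adjusted p = 0.010), a call lost without Drosha-line replicate 1 although the difference was -2.36 or below in each fit without 1 library. A B1-type site on chromosome 11 with 1 copy was at 20.5 and 15.9 RPM against 3.18 and 4.25 RPM (-2.26 ± 0.48), with the call lost without either Drosha-line replicate. In the deficient cells all 4 were again below 0.

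**Figure D2:**
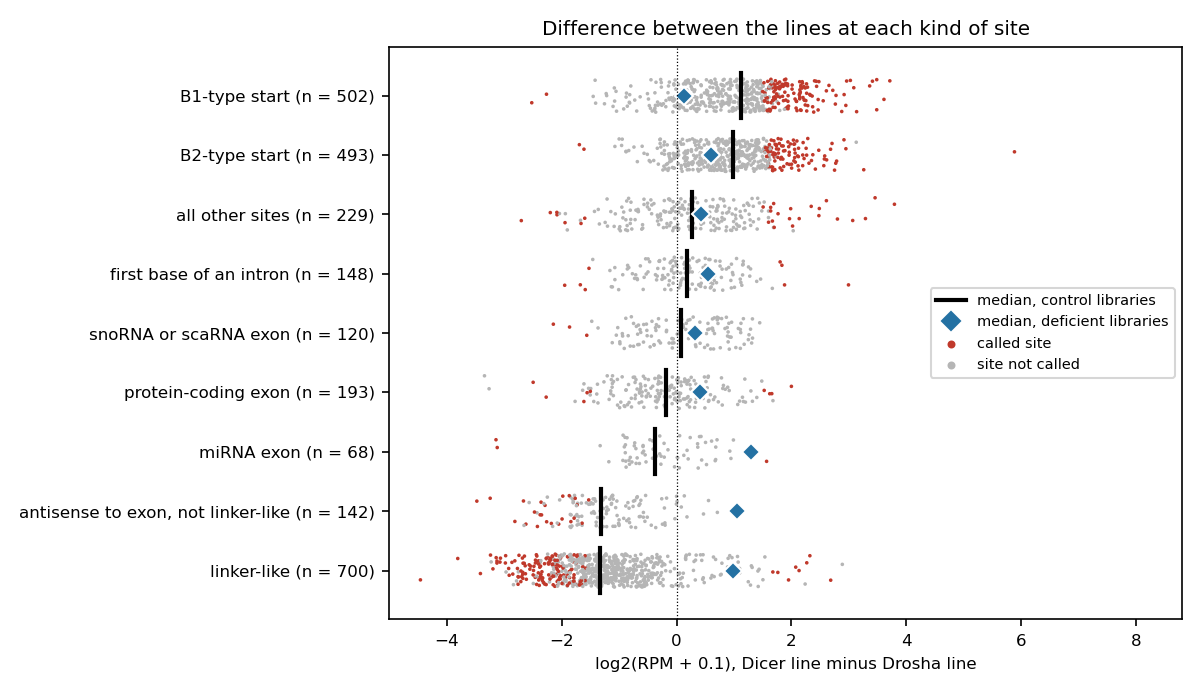
Difference in log2(RPM + 0.1), Dicer line minus Drosha line, in the control libraries at each shared site (points, red where called), by kind of site, with the median over control libraries (black bar) and over deficient libraries (blue diamond). B1-type and B2-type sites have control medians of 1.12 and 0.98 and deficient medians of 0.12 and 0.61. Linker-like sites have a control median of -1.34 and a deficient median of 0.99.

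Sites lower in the Dicer line were mostly antisense to exons and linker-like. Of 730 sites antisense to an exon, 722 of them to a protein-coding exon, 150 were called lower and 2 higher, with a median difference of -1.38, and 576 of them (78.9%) were linker-like. Over all classes, 700 sites were linker-like, of which 140 were called lower and 8 higher, with a median of -1.34 (quartiles -1.86 and -0.78) and 639 below 0. Of all shared sites, 7.24% were called lower and 10.3% higher. The 142 antisense sites that were not linker-like had a median of -1.31, with 23 called lower and none higher. A single one of the 142 had both Dicer-line libraries above both Drosha-line libraries. Here, not linker-like means only that the full TCT was missing. Most of the 23 called sites, among them those at Pomt1 and Dnmt1, had the last 2 linker bases, CT, directly before them. They are therefore not a kind free of linker letters. With libraries centred on the sites that were not linker-like, the median was -1.87 at linker-like sites. It was -1.84 at the antisense sites that were not linker-like.

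The difference at these sites was not the same in the replicates or in the deficient cells. The median linker-like site was at 5.79 and 4.55 RPM in the Drosha-line controls and at 3.43 and 1.37 RPM in the Dicer-line controls, so that the Dicer-line replicates differed by 1.49 on the log2 scale (median over sites) against 0.28 for the Drosha-line replicates. It was at 1.26 and 1.11 RPM in Drosha-deficient cells and at 3.82 and 1.57 RPM in Dicer-deficient cells. All 4 medians of the Dicer line therefore lay below the Drosha-line controls and above the Drosha-deficient cells. In the deficient libraries the median difference was 0.99 and 645 of the 700 sites were above 0. For antisense sites that were not linker-like the medians were 4.90 and 4.12 RPM, 3.07 and 1.05 RPM, 1.18 and 0.938 RPM, and 3.18 and 1.34 RPM in the same order, with a deficient median of 1.04 and 137 of 142 above 0. Without Dicer-line replicate 1, 499 linker-like sites were called lower, and without Dicer-line replicate 2, 57 were. Without Drosha-line replicate 1 there were 11 and without Drosha-line replicate 2 there were 25. The part of ligation or priming in these levels was not tested.

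**Figure D3:**
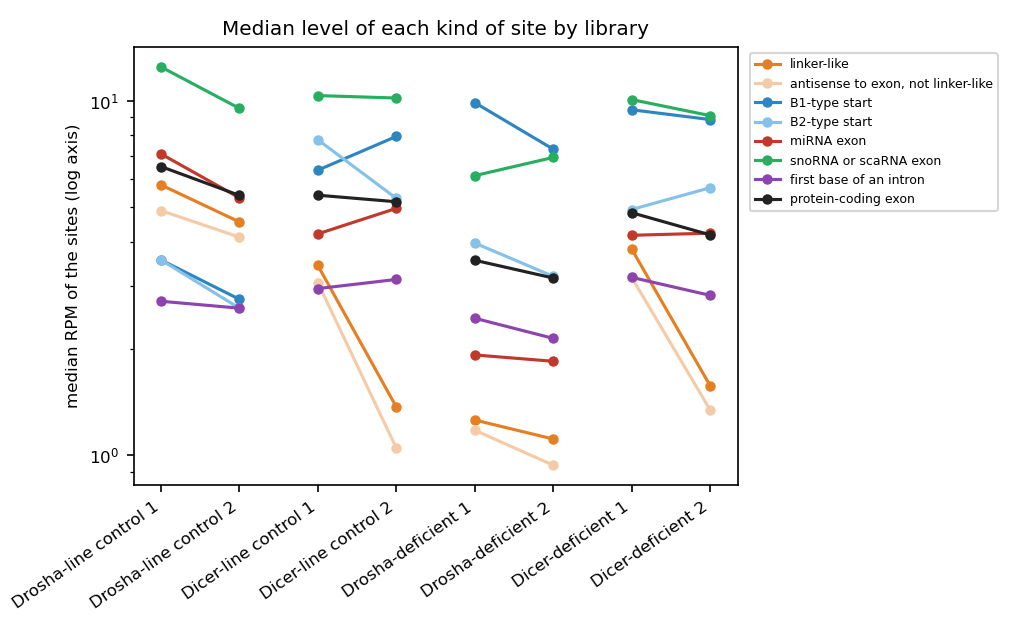
Median RPM (y axis, log scale) of each kind of shared site in each of the 8 libraries (x axis), with lines joining the 2 replicates of a group. Linker-like and antisense sites fall from 3.43 to 1.37 RPM and from 3.07 to 1.05 RPM between the 2 Dicer-line controls, while the B1-type median is at 2.75 to 3.56 RPM in the Drosha-line controls and at 6.37 to 9.87 RPM in the other 6 libraries.

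The largest difference in this direction was antisense to Egln1, the prolyl hydroxylase that marks HIF-alpha for destruction in oxygen. The site was at 61.4 and 52.5 RPM against 6.19 and 0.962 RPM (-4.46 ± 0.69, adjusted p = 0.0047), and at 20.7 and 15.9 RPM in Drosha-deficient and 17.6 and 3.91 RPM in Dicer-deficient cells. The lines did not overlap, and the Dicer-line controls differed more from each other than the Drosha-line controls did. A site antisense to Dst, the cytoskeletal linker dystonin, was at 59.2 and 54.9 RPM against 12.9 and 2.10 RPM (-3.42 ± 0.69, adjusted p = 0.014). A site antisense to Pomt1, a protein O-mannosyltransferase, was at 12.6 and 9.92 RPM against 3.27 and 0.204 RPM (-3.48 ± 0.85, adjusted p = 0.025, lost without Drosha-line replicate 1). It was not linker-like, but had the last 2 linker bases directly before it. The introns of Ascl4, 4930511M06Rik and Man2c1os held the lowest intron sites that the naming rule took, all 3 linker-like, with differences of -2.76, -2.39 and -2.36. Their calls were lost without either Drosha-line replicate, and those at 4930511M06Rik and Man2c1os also without Dicer-line replicate 2, at -1.55 and -1.02. Of the RNAs without a protein product, Gm17638 (linker-like) differed by -2.74 and Gm16982 by -2.70, and without Dicer-line replicate 2 these were -1.07 and -1.12 and not called. Gm17638 was not called without either Drosha-line replicate as well.

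Among miRNA precursors, 3 sites were called. The shared sites held 72 in annotated miRNA exons, of which 1 was called higher and 2 lower, 1.39% and 2.78% against 10.3% and 7.24% of all sites. Of the 72, 52 lay 1 to 3 bases after the 3′ end of a mature miRNA, 43 of them at 1 base, which is where the downstream fragment of a Drosha cut begins. The median difference over the 68 that were not linker-like was -0.37, which became -0.90 when libraries were centred on the sites that were not linker-like. Of the 68, 30 had both Dicer-line libraries below both Drosha-line libraries and 13 had both above. Over all sites these shares were 32.3% below and 37.1% above. The mature miRNAs beside the sites described here are given from RefSeq, with the seed (bases 2 to 8) in capitals, to show which of them share a seed.
miR-210-3p: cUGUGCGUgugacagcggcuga
miR-296-3p: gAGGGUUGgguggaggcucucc
miR-290a-3p: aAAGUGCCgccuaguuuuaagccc
miR-291a-3p: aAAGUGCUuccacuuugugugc
miR-291b-3p: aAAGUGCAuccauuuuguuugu
miR-294-3p: aAAGUGCUucccuuuugugugu
miR-295-3p: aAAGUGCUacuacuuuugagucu
The seed AAGUGCU was the same in miR-291a-3p, miR-294-3p and miR-295-3p, while the seeds of miR-210-3p and miR-296-3p were different from it and from each other. miR-147-3p and miR-292a-3p are named only.

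Mir210, the precursor of an miRNA known to be induced in hypoxia, was lower in the Dicer line. Its site, on the minus strand of chromosome 7 at base 141221406, was at 38.04 and 25.7 RPM against 2.26 and 5.25 RPM (-3.14 ± 0.53, limma adjusted p = 0.0061), and at 9.32 and 7.54 RPM in Drosha-deficient and 8.85 and 4.52 RPM in Dicer-deficient cells. Mir147, which lies in its host AA467197 on the plus strand of chromosome 2 at base 122640872, was at 42.5 and 39.5 RPM against 4.08 and 5.22 RPM (-3.12 ± 0.47, adjusted p = 0.0047), and at 18.03 and 14.7 RPM and 16.9 and 11.5 RPM in the deficient cells. At both, every Dicer-line control was below every Drosha-line control, while the deficient libraries of the 2 lines lay close together. The differences in the deficient libraries were -0.40 and -0.22.

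Mir296 was the miRNA precursor called higher in the Dicer line, and its site was at base 174267057 on the minus strand of chromosome 2. It was at 26.5 and 43.0 RPM against 98.8 and 102 RPM (1.57 ± 0.47, adjusted p = 0.044), with no overlap. It was at 6.65 and 5.66 RPM in Drosha-deficient and at 68.3 and 59.6 RPM in Dicer-deficient cells, below the controls in the first and nearer to them in the second. Its call was lost when libraries were centred on their medians, with TMM factors, and without Drosha-line replicate 1 or 2, where the difference was 1.22 and 1.92. The calls at Mir210 and Mir147 held in each fit without 1 library, between -3.73 and -2.55 and between -3.30 and -2.95.

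The cluster that is most abundant in ESCs held no called site, which with 2 libraries a line does not show that the lines were alike. The cluster from Mir290a to Mir295, the main miRNA family of mouse ESCs, had 7 sites with a median difference of 0.13, none called, and that median was -0.25 without Dicer-line replicate 1 and -0.40 with libraries centred on the sites that were not linker-like. Mir295, whose site was linker-like, was at 660 and 704 RPM against 1009 and 575 RPM (0.16), so its lines overlapped. Mir294 was at 275 and 181 RPM against 219 and 185 RPM (-0.15), again overlapping. Mir290a was at 617.6 and 421 RPM against 348 and 215 RPM (-0.90 ± 0.46, adjusted p = 0.17), with no overlap. Mir291a was at 136 and 127 RPM against 203 and 153 RPM (0.43), also without overlap and in the other direction. Mir292 was at 0.13, and the sites of Mir291b at -0.22 and 0.68. Within the cluster the lines were apart at some members and mixed at others, with no call, and the signs of Mir291a, Mir292 and Mir295 turned below 0 when libraries were centred on the sites that were not linker-like.

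Of the other miRNA groups given here, only the Dlk1-Dio3 region held a called site. The miR-17-92 family, a growth-promoting set of clusters, had 6 sites with a median of -0.25 and none called: Mir106b was at 0.61, Mir92-1 at 0.24, Mir19b-1 at -0.21, Mir25 at -0.29, Mir92-2 at -0.53 and Mir19b-2 at -0.69. let-7, which rises as ESCs differentiate, had 5 sites with a median of 0.05, from Mirlet7f-1 at -0.29 to Mirlet7g at 0.67, and that median was -0.04 with libraries centred on their medians and -0.48 with the centring just named. The imprinted Dlk1-Dio3 region, whose non-coding RNAs come from the maternal chromosome, had 12 sites with a median of -0.23, 1 called lower. Its miRNA sites ran from Mir770 in Meg3 at -1.18 through Mir370 at -0.91, Mir496a at -0.78, Mir410 at -0.27, Mir485 at -0.19 and Mir136 at 0.11 to Mir679 at 0.68. Those of Mir485 and Mir136 were linker-like. The snoRNA sites of the region, in Rian, ran from Gm24895 at -0.68 through DQ267100 at -0.18 and AF357425 at 0.17 to Gm26922 at 0.88.

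The called site of the Dlk1-Dio3 region was in an exon of Rian, its long non-coding RNA that hosts snoRNAs. It was at 21.7 and 15.1 RPM against 4.05 and 7.84 RPM (-1.66 ± 0.51, adjusted p = 0.046), with no overlap, and at 55.0 and 32.4 RPM in Drosha-deficient and 35.8 and 42.1 RPM in Dicer-deficient cells, above both controls in each line. The call was lost without Drosha-line replicate 1 or 2 and without Dicer-line replicate 1, with a difference of -1.20 nearest 0. Of the remaining miRNA sites, Mir22 was at 0.99 with no call, Mir16-1 in Dleu2 at -0.82, Mir5099 at -0.70, Mir700 in Rcan3 at -0.58, Mir671 in Chpf2 at -0.27, Mir677 at 0.37 and Mir5121 at 0.02.

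**Figure D4:**
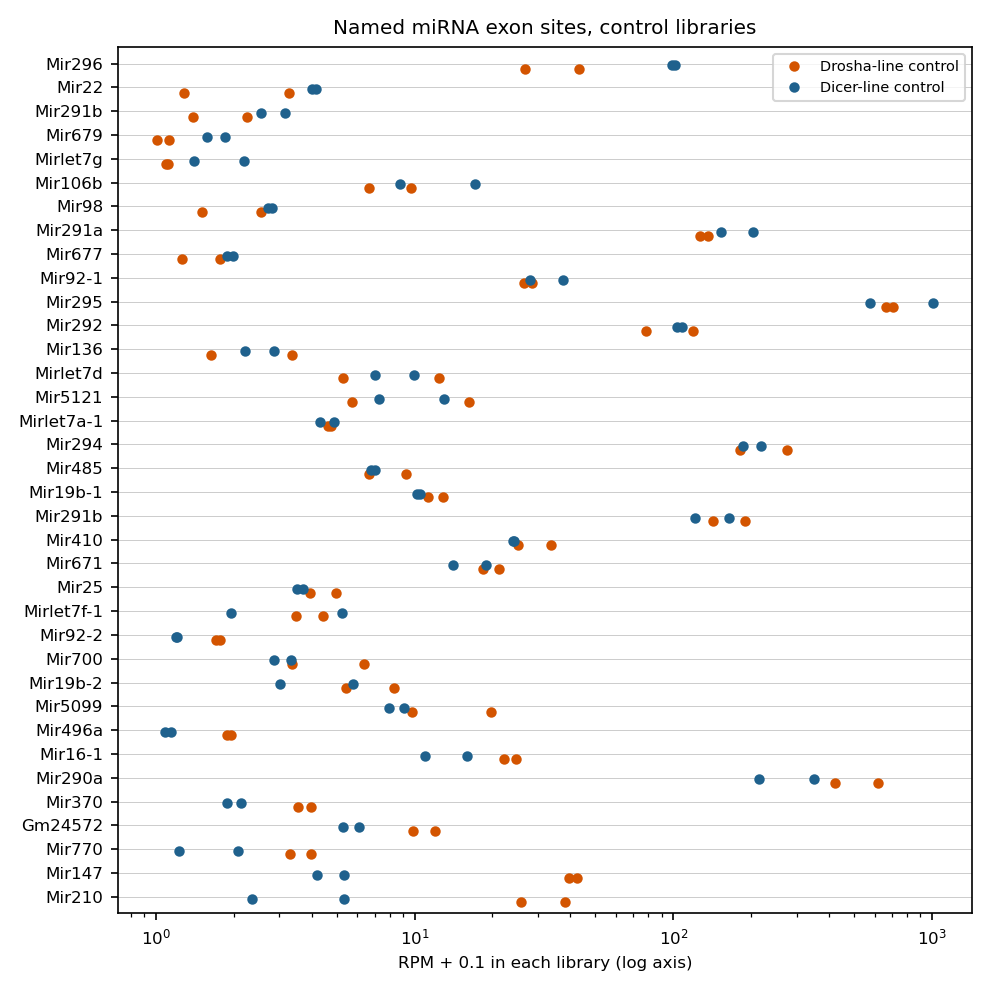
Level of each named miRNA exon site (rows) in each control library (x axis, RPM + 0.1, log scale; 1 point a library, orange for the Drosha line and blue for the Dicer line), ordered by the difference. Mir296 at the top and Mir147 and Mir210 at the bottom have the widest gaps between the lines, and the Mir295 points overlap at 575 to 1009 RPM.

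The genes of miRNA processing and the genes that the study discusses were then looked at. The stem-loop in an exon of Dgcr8, through which the Microprocessor cuts the messenger RNA of its own subunit, had a site annotated as Gm24572 at 11.9 and 9.75 RPM against 5.21 and 6.003 RPM (-0.93 ± 0.47, adjusted p = 0.16), without overlap and without a call. It was at 1.61 and 2.71 RPM in Drosha-deficient and 3.99 and 4.61 RPM in Dicer-deficient cells. The list of Microprocessor, Dicer and Argonaute-partner genes had 4 sites with a median of 0.64 and 1 call, the B1-type site of Tnrc6b described above, beside Ddx17 at 0.23 and Tnrc6c at 1.04. A list of genes that the study discusses, which mixes miRNA precursors and messenger RNAs, Drosha substrates and others, and is not independent evidence of direction because it was chosen on these cells, had 14 sites with a median of -0.52, none called. Cad, the enzyme that begins pyrimidine synthesis, had sites at -1.03 and -1.07, and the site at -1.07 was linker-like. Plekhm1, a known target of slicing by AGO2, was at -0.45 and Lrrc59 at -0.31. Plekhm1 and Lrrc59 turned above 0 without 1 of the libraries, and Ddx17 turned below 0 when libraries were centred on the sites that were not linker-like.

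In protein-coding exons, 6 of 275 sites were called higher and 11 lower, 2.18% and 4.00% against 10.3% and 7.24% of all sites, with a median of -0.19. By part of the transcript, 3 of 46 sites in 3′ UTRs were called higher and 4 lower (median 0.11), 5 of 92 sites in coding sequence were called lower and none higher (-0.34), and 1 of 53 sites in 5′ UTRs was called lower and none higher (-0.19). The 193 that were of no other kind had a median of -0.19, and -0.72 when centred on the sites that were not linker-like.

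Of the sites in protein-coding exons, the lowest difference was in the 5′ UTR of Mt2, metallothionein 2, which binds zinc and is induced by metals. It was at 143 and 99.6 RPM against 8.39 and 8.45 RPM (-3.81 ± 0.47, limma adjusted p = 0.0022), and its 7 linker-like bases are printed above. The lines did not overlap, whereas the Drosha-deficient libraries, at 42.3 and 28.5 RPM, lay within the range of the Dicer-deficient libraries, at 52.8 and 20.9 RPM. Tfrc, the transferrin receptor, whose 3′ UTR holds the iron-responsive elements that control its decay, had a site in that UTR at 52.96 and 40.3 RPM against 6.22 and 14.5 RPM (-2.27 ± 0.52, adjusted p = 0.021). It was at 32.2 and 22.6 RPM in Drosha-deficient and at 5.61 and 3.97 RPM in Dicer-deficient cells, so that the line difference was seen in both conditions. Ldhb, a lactate dehydrogenase subunit, was at 15.8 and 12.3 RPM against 3.24 and 1.75 RPM (-2.497 ± 0.50, adjusted p = 0.014) at a site with 2 genomic copies. On the strand antisense to Ldhb, a nearby site was at 38.9 and 38.7 RPM against 7.87 and 2.01 RPM (-3.25 ± 0.60, adjusted p = 0.010). Sense and antisense sites of Ldhb were lower together. The Tfrc site and both Ldhb sites had the last 2 linker bases, CT, directly before them. The same 2 bases stood before the site of Gm16982. They also preceded the coding site of Bsg and the first Gas5 site (Mir5117) given below.

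The remaining lower sites were smaller in size. Tom1l1, an endosomal adaptor, Rac1, a small GTPase of the cytoskeleton, and Rfc5, a subunit of the clamp loader of DNA replication, differed by -1.90, -1.82 and -1.74 and were all linker-like, as were Oard1 at -1.69 and Ctu2 at -1.66. Bsg, the membrane glycoprotein basigin, was at 30.8 and 24.5 RPM against 10.7 and 7.37 RPM (-1.61), and a linker-like site of Bsg on the other strand differed by -2.03. Cgn, the tight junction protein cingulin, differed by -1.56 at a site with 2 copies and D17Wsu92e by -1.502. The calls at Tfrc, Ldhb, Tom1l1, Rac1, Rfc5 and the linker-like site of Bsg were lost without either Drosha-line replicate, with differences between -2.92 and -1.42 over the fits without 1 library. The same held for Oard1, Ctu2, the coding site of Bsg, Cgn and D17Wsu92e, with differences between -2.13 and -1.21, and all of these but Cgn were lost without Dicer-line replicate 2 and Cgn without Dicer-line replicate 1.

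Esrrb and 3 other messenger RNAs had exon sites called higher that were of no other kind. Esrrb, an orphan nuclear receptor of naive pluripotency, had a 3′ UTR site at 57.6 and 58.5 RPM against 185 and 182 RPM (1.66 ± 0.44, adjusted p = 0.032), and at 41.1 and 33.7 RPM in Drosha-deficient and 269 and 273 RPM in Dicer-deficient cells. The replicates agreed closely within each group and the lines were apart in both conditions. Phc1, a Polycomb repressive complex 1 subunit, was at 8.44 and 5.95 RPM against 24.3 and 17.5 RPM (1.53 ± 0.48, adjusted p = 0.048). Enoph1, an enzyme of methionine salvage, was at 3.84 and 6.71 RPM against 19.5 and 12.9 RPM (1.62 ± 0.51, adjusted p = 0.047), and Nbea, neurobeachin, a membrane traffic protein, at 1.43 and 0.890 RPM against 4.98 and 4.66 RPM (2.00 ± 0.56, adjusted p = 0.036). At all 4 the lines did not overlap. All 4 calls were lost without either Drosha-line replicate, at differences between 1.23 and 2.31, those at Phc1 and Enoph1 also without Dicer-line replicate 1, and all 4 when libraries were centred on the sites that were not linker-like.

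Of 25 pluripotency genes, 5 had shared sites, 7 in all, with 2 called higher, none lower and a median of 0.89 (over all sites 10.3% were called higher and 7.24% lower), which was 0.36 with libraries centred on the sites that were not linker-like. Their summed level was 196 and 167 RPM against 323 and 305 RPM, and 97.0 and 87.3 RPM against 367 and 357 RPM in the deficient cells. The lines did not overlap in the sum, but the Esrrb site, itself called higher, held most of the gap. It was at 57.6 and 58.5 RPM against 185 and 182 RPM, and at 41.1 and 33.7 RPM against 269 and 273 RPM in the deficient cells. The sum therefore shows little about the other sites. The largest difference among the 7 was at the first base of an intron of Zfp42, also named Rex1, the marker of undifferentiated ESCs. That site was at 1.60 and 1.026 RPM against 12.9 and 9.30 RPM (2.99 ± 0.51, adjusted p = 0.0061), and at 0.129 and 0.313 RPM in Drosha-deficient and 6.05 and 2.44 RPM in Dicer-deficient cells. Its call held in each fit without 1 library, between 2.69 and 3.29.

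Nanog, a core pluripotency factor, had a linker-like site in its 3′ UTR at 26.5 and 11.9 RPM against 45.8 and 58.7 RPM (1.54 ± 0.51, adjusted p = 0.055), which was not called, and intron-start sites at -0.12 and 0.43. Fgf4, the growth factor that ESCs secrete, was at 103 and 89.7 RPM against 71.2 and 47.8 RPM (-0.72 ± 0.46, adjusted p = 0.26), in the other direction and without overlap. Tbx3 was at 0.89. Hence 1 of the 5 genes lay below 0 at its only site, and Nanog sites lay on both sides. No shared site fell in any of 25 fibroblast marker genes, which stand for the feeders, so the sites do not show how many feeder cells each library held. Fewer cells of a type and less RNA per cell cannot be told apart here.

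**Figure D5:**
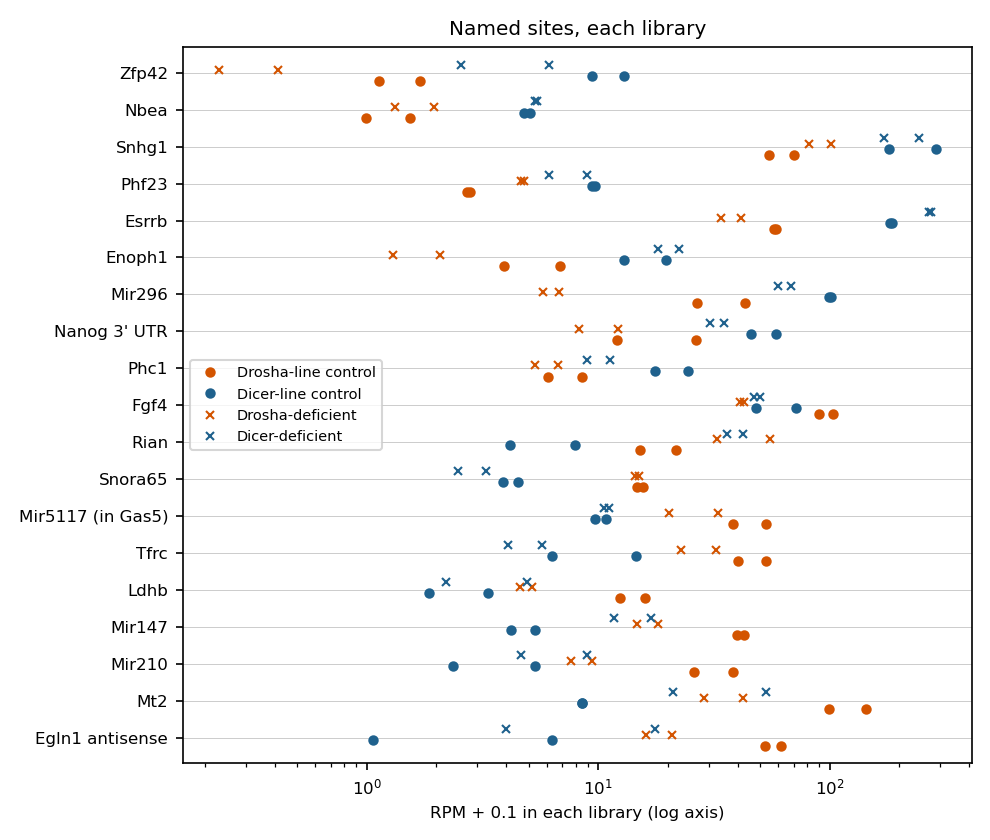
Level of 19 named sites (rows, ordered by the control difference) in each of the 8 libraries (x axis, RPM + 0.1, log scale), with circles for control and crosses for deficient libraries, orange for the Drosha line and blue for the Dicer line. Esrrb and Zfp42 are higher in the Dicer line in both conditions, Tfrc and Snora65 are lower in both, and at Mir147, Mir210 and Mt2 the crosses of the 2 lines lie close together.

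Intron starts and snoRNAs are given next, beside 10.3% called higher and 7.24% called lower over all sites. At the first base of introns, 4 of 150 sites were called higher and 4 lower, 2.67% each, with a median of 0.19 that turned to -0.34 when libraries were centred on the sites that were not linker-like. Snhg1, a snoRNA host gene, was at 70.3 and 54.4 RPM against 180 and 288 RPM (1.88 ± 0.47, adjusted p = 0.025), and at 100.9 and 81.5 RPM against 242 and 172 RPM in the deficient cells. Phf23, a PHD finger protein, was at 2.68 and 2.60 RPM against 9.32 and 9.62 RPM (1.80 ± 0.47, adjusted p = 0.030). The fourth higher site, after Zfp42, was in Cdan1, mutated in a congenital anaemia, at 1.83. The lower ones were in Elmsan1 at -1.95, Zcchc14 at -1.68, Baz2a at -1.59 and Hk2, hexokinase 2, at -1.53. Apart from Zfp42, all of these calls were lost without either Drosha-line replicate, and those at Baz2a and Hk2 also without Dicer-line replicate 1. Over the fits without 1 library, Snhg1 and Phf23 were at 1.54 to 2.22, Cdan1 at 1.32 to 2.35 and the 4 lower sites at -2.01 to -1.32.

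Of 122 sites in snoRNA or scaRNA exons, none was called higher and 3 lower, with a median of 0.10 that turned to -0.43 with the same centring and to -0.07 without Drosha-line replicate 2. Of the 120 that were not linker-like, 9 were called higher without Dicer-line replicate 2 and 2 without Dicer-line replicate 1. The 58 sites at the annotated first base had a median of 0.06 with no call, and the 64 others 0.23 with the 3 calls. Snora65, an H/ACA snoRNA in the ribosomal protein gene Rpl12, was at 14.6 and 15.6 RPM against 4.40 and 3.76 RPM (-1.86 ± 0.47, adjusted p = 0.027), and at 14.4 and 14.8 RPM against 3.18 and 2.38 RPM in the deficient cells. The lines were apart in both conditions, and the site had 4 genomic copies. Neighbouring bases in the snoRNA host Gas5, both annotated as Mir5117, were at 38.1 and 53.1 RPM against 9.55 and 10.7 RPM (-2.15 ± 0.47, adjusted p = 0.019) and at a difference of -1.56. They share a transcript and are not independent. The call at Snora65 was lost without either Drosha-line replicate (-1.97 to -1.75), and that of the first Gas5 site without Drosha-line replicate 2. The sites that were most above 0 were Snord99 at 1.32 and Gm23212 in Gas5 at 1.45, with no overlap and no call.

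None of the 5 deepest sites was called. The deepest, on the minus strand of chromosome 1 with 2 copies, 1 of them mitochondrial, was at 31840 and 43533 RPM against 33172 and 36328 RPM (-0.10), with overlap. Gm10222 beside it, also a copy of mitochondrial DNA, was at 13054 and 17654 RPM against 9572 and 12456 RPM (-0.48), lower in both Dicer-line libraries. The site antisense to CT010467.1 on chromosome 17, at 15932 and 9169 RPM against 15469 and 7043 RPM (-0.21), differed more between replicates than between lines, and a site beside it, at base 39842997, was at 5331 and 2879 RPM against 2637 and 2287 RPM (-0.67), with no overlap. Snord82, a snoRNA in the nucleolin gene, was at 4689 and 5978 RPM against 11962 and 7536 RPM (0.84 ± 0.42, adjusted p = 0.16), with no overlap. Not far from the chromosome 17 sites, Gm42418 was at 43.7 and 24.1 RPM against 125 and 88.3 RPM (1.69 ± 0.49, adjusted p = 0.041), a call lost without either Drosha-line replicate and without Dicer-line replicate 1. 1700108F19Rik differed by 2.02, a call lost without either Drosha-line replicate.

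The other gene lists are given beside 10.3% called higher and 7.24% called lower over all sites. Of 75 sites of snoRNA host genes, 1 was called higher and 2 lower (median 0.52), of 50 sites of ribosomal protein genes none and 1 (0.04), and of 19 sites of genes known to be degraded by nonsense-mediated decay none and 1 (-0.13). Snora65 and the Gas5 sites are among these calls, so the lists overlap. The 124 sites of the snoRNA list, which goes by gene type, held none and 3 (0.10), the 21 sites on genes of the X chromosome held no call (0.55), and neither did the 4 sites of stress and p53 genes (0.50) and the 2 sites of interferon and double-stranded RNA genes (-0.52). With libraries centred on the sites that were not linker-like, the medians of the snoRNA hosts, ribosomal proteins and stress genes were -0.01, -0.49 and -0.03, that of the snoRNA list -0.43 and that of the X chromosome 0.02. The lists of histones, other imprinted genes and mitochondrially encoded genes had 0 sites. A few sites were at or under the floor in 1 line and get no fold: Slc38a1, an amino acid transporter, was at 0 in both Drosha-line controls and at 0 and 2.13 RPM in the Dicer-line controls.

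Differences between the control lines were set beside those between the deficient cells, which were not tested. Among all sites, 76.7% were above 0 in the deficient libraries. Of the 267 sites called higher in the Dicer-line controls, 198 were above 0 there too, with a median of 0.74. Of the 188 called lower, 145 were above 0 as well, while 43 were below 0, and the median was 0.57. Among the lower sites, 118 of 140 linker-like sites and 27 of the 44 that were neither linker-like nor repeat-type were above 0, and none of 4 repeat-type sites.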

How the data were processed

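Degradome-seq was deposited for 2 Drosha-line control, 2 Drosha-deficient, 2 Dicer-line control and 2 Dicer-deficient libraries. The values are RPM, which the authors made by trimming with Trimmomatic 0.38.0, aligning with STAR to GRCm38 (mm10) and counting 5′ ends per site, with their own filters applied in each experiment. The tables also hold log fold changes, p-values and adjusted p-values from the authors' edgeR 3.26.1 tests of deficient against control cells, which were not used, and neither was the RNA-seq table. The members and gene lists were chosen with earlier results of these data known. Sites were joined by chromosome, strand and base, and log2(RPM + 0.1) was fitted with limma 3.58.1 in R 4.3.3, with a mean-variance trend and Benjamini-Hochberg adjustment over all 2595 sites. The 2 residual degrees of freedom gained 10.6 prior degrees. On simulated data for this comparison, with 2595 sites, the fit recovered 95% of sites changed by 2.5 on the log2 scale and 100% of those changed by 3.5. It called 6 of 2395 unchanged sites. The simulated sites were independent, with a single dispersion of 0.1. No kind of site was shifted as a whole in 1 library, as linker-like sites were in the data. The number of false calls therefore need not carry over. Every RPM value under 100 was a whole number of reads within 0.05 reads, which gave the depth, and higher values were not checked. Intervals and floors cover counting error only. Copies, genes and letters were read from GRCm38, and 1 site had no sequence. Named were, in each annotation class, the 3 (6 in protein-coding and miRNA exons) largest differences each way among called sites with no overlap and a mean of at least 1 RPM, filled to 2 with sites that were not called, the sites of the miRNA, Microprocessor and study-named lists, the 5 deepest sites, and pluripotency and fibroblast genes. Oard1, Ctu2, Bsg in coding sequence, Cgn, D17Wsu92e, Slc38a1, the antisense site of Ldhb and 5 intron starts (Cdan1, Elmsan1, Zcchc14, Baz2a and Hk2) were added after their values were seen. The alternatives were other pseudocounts, scalings, filters, fits and sets of libraries.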

Additional observations from a re-analysis of the deposited data

How the results depend on the processing

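With 2 libraries in each line the calls rest on variances shared across sites. Sites called higher numbered 267 and sites called lower 188, and these became 34 and 6 without the mean-variance trend, 3 and 2 over the sites with 1 genomic copy, and 114 and 518 with libraries centred on the sites that were not linker-like. The lower sites alone moved past 1.5-fold with median centring (330), TMM factors (322), all 8 libraries in the fit (109), without linker-like sites (88), without linker-like and antisense sites (34) and without linker-like sites with a replicate block (74). With the replicate block alone, 288 were called higher and 258 lower. Same-numbered libraries of the 2 lines deviated with a correlation of -0.07, so they share only a number. Leaving out 1 library gave 30 to 329 higher and 16 to 645 lower. The cause of these moves was not tested. Of the 42 named called sites, 4 (Mir147, Mt2, the chromosome 12 site and the chromosome 14 site) were called in every fit that held them, 10 were called without the trend and 2 of 34 over the sites with 1 copy, and none reversed.

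Reversals were seen at named sites that were not called. Centred on the sites that were not linker-like, Mir5121 was at -0.51, Mirlet7d at -0.48, Mir136 at -0.42, Mir292 at -0.40, Mir295 at -0.37, AF357425 at -0.36, Ddx17 at -0.30, Mir92-1 at -0.29, Mir677 at -0.16, Mir291a at -0.10, Nanog (base 122707934) at -0.10 and Mir98 at -0.026. With median centring Mir5121 was at -0.0704 and Mirlet7d at -0.0416, and with TMM factors they were at -0.0822 and -0.0535. Leaving out 1 library gave ranges that crossed 0: CT010467.1 -0.78 to 0.36, Nanog -0.46 to 0.21 (base 122711804) and -0.0071 to 0.87 (base 122707934), Ddx17 -0.18 to 0.63, Mirlet7f-1 -1.01 to 0.42, Mir291b -0.44 to 0.0047, Mir485 -0.43 to 0.048, Mir294 -0.45 to 0.15, Mirlet7a-1 -0.13 to 0.056, Mir5121 -0.73 to 0.77, Mirlet7d -0.57 to 0.67, Mir136 -0.41 to 0.62, Mir292 -0.17 to 0.42, Mir295 -0.25 to 0.57, the deepest site on chromosome 1 -0.33 to 0.12, Plekhm1 -0.95 to 0.061, Lrrc59 -0.65 to 0.034, DQ267100 -0.59 to 0.23 and AF357425 -0.22 to 0.55.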

Other observations

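The 3 sites in 3′ UTRs that were called higher in the Dicer line shared letters that the naming did not use. TGTANAT began at base 7, counted from the site, in 7 of the 2595 shared sites (0.27%) and at base 7 of 19 of 32851 promoter windows (0.0578%). Of the 7, 6 were among the 46 sites in 3′ UTRs. Anywhere in the first 30 bases the letters were in 17 sites (0.655%) and in 228 promoter windows (0.694%). Of the 46 sites, 13 had both Dicer-line libraries above both Drosha-line libraries, as had 964 of all 2595 sites (37.1%). Of these 13, 6 hold the letters at base 7. The windows counted were of promoters, not of 3′ UTRs. The letters were noticed after the values had been seen, so no test is given, and a match is not a bound site. The lines below start at the site, with the letters in capitals, and are shown so that the common spacing can be seen.
Srrm1, chr4:135321309-135321333, minus strand: ttatgtTGTAAATtttatttggttt
Lrrc58, chr16:37885501-37885525, plus strand: tatagtTGTAAATaatccagccaga
Enoph1, chr5:100068669-100068693, plus strand: taaagaTGTAAATtttataacagca
Esrrb, chr12:86521469-86521493, plus strand: ttaagaTGTATATattttttaaccg
Mark2, chr19:7275829-7275853, minus strand: ctgagtTGTACATtttttttgtgat
Nbea, chr3:55625681-55625705, minus strand: catagaTGTACATatcgtgtcggta
The 3 sites among the 46 that were called higher, Enoph1, Esrrb and Nbea, are all in this set. Srrm1, a splicing coactivator, was at 2.61 and 2.67 RPM in the Drosha-line controls and 3.85 and 4.69 RPM in the Dicer-line controls (difference 0.67). Lrrc58 was at 1.88 and 0.992 RPM against 2.75 and 3.91 RPM (1.20), and Mark2, a polarity kinase, at 2.68 and 3.25 RPM against 5.12 and 18.2 RPM (1.68, adjusted p = 0.065). At all 6 both Dicer-line libraries were above both Drosha-line libraries, and in the deficient libraries the differences ran from 1.75 at Nbea to 3.62 at Enoph1. The seventh site, in A530017D24Rik, overlapped between the lines (0.58). A protein-coding exon site with the letters at a different base, in Ipo9, was at -0.32.

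A pair of shared sites had reads in few of the 8 libraries. Gmfg was at 9.13 RPM in Drosha-line control replicate 1 and at 0 in the other 3 controls and in the deficient cells apart from Dicer-deficient replicate 1 (3.51 RPM), and a site in the overlapping genes Arhgap4 and Naa10 was at 10.2 RPM in that library and at 0 in the other 7.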
